A study of Rattus norvegicus with 59 samples.

Results

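The 60 genes described here are those whose kidney RNA was lowest at 2 weeks of age, below both newborn and adult levels, out of the 13337 genes with a named probe on the array. They were chosen by the deposited log2 values of untreated rats alone. For each gene the score was the smaller of 2 differences, the mean at 2 days minus that at 2 weeks and the mean of adults minus that at 2 weeks, and the 60 highest scores were taken, with Cyp24a1, S100a8 and S100a9 set aside and 1 untreated 2-week male left out.

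Kidneys came from 59 Fawn-Hooded Hypertensive rats, an inbred strain that develops raised blood pressure and progressive kidney damage, with 1 Illumina RatRef-12 array per rat. The treated rats had dams that drank pyrrolidine dithiocarbamate (PDTC), which blocks the transcription factor NF-kB, in water at 150 mg per L from 2 weeks before birth until 4 weeks after it; the dams of the untreated rats did not. Treated adults had thus been without PDTC since 4 weeks of age. PDTC rats numbered 4 females and 4 males at 2 days, 6 females and 4 males at 2 weeks, and 5 females and 5 males as adults. Untreated rats numbered 5 females and 5 males at 2 days, 5 females and 6 males at 2 weeks, and 5 females and 5 males as adults. Adult females were 42 and adult males 36 weeks old, so adult sex and age in weeks cannot be told apart. All rats, treated and untreated, shared the strain. Their litters were not stated, so each p-value covers only rat-to-rat spread and littermates may be among the replicates.

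The rat kidney is still forming at birth: new nephrons are added during the first days of life, and tubules mature over the following weeks, when pups also pass from milk to solid food. Detoxifying enzymes, transporters and ribosome factors are regulated during this period by hormones, diet and growth signals. The 60 genes span several roles, and 6 encode enzymes of detoxification or a metal-binding protein. Another 12 were grouped under ribosome assembly and translation, among them the growth regulator Myc and the poly(A)-binding protein Pabpn1. Metabolism and mitochondria hold 11, while 8 are secreted or mark immune cells and 8 are receptors or signalling proteins. A further 10 are membrane, transport or cytoskeletal proteins, and 5 are nuclear or of other kinds.

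Scores of the 60 genes ran up to 1.68 with a median of 0.49, against a median of -0.07 over the 13334 genes ranked, of which 27.3% were above 0. These scores describe the selection and carry no test. The last genes inside were Pacsin2 at 0.387, Gnmt at 0.385 and Tomm22 at 0.377, and the next outside were Rrp9 at 0.375, Selenow at 0.373 and Thop1 at 0.366. The group therefore has no sharp edge.

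RefSeq promoters of assembly GRCr8, from 250 bases before to 50 after the annotated start, were matched by gene ID for 52 of the 60 genes. A binding motif of NF-kB, the factor PDTC is given to inhibit, was searched as GGGNNTTCC on both strands and was present in 4 of 52 promoters (7.7%), against 6.16% of the 10976 promoters of genes on the array. Its carriers were Tff3, Cd83, Tas1r1 and C1qb. Tff3 encodes a trefoil peptide of mucosal surfaces and Cd83 a surface protein of mature dendritic cells and activated lymphocytes; both are shown because they have the highest scores among the carriers, with the motif in capitals. Tff3 lies at chr20:9199284-9199583, minus strand, with the motif 16 bases before the start. Cd83 lies at chr17:21112628-21112927, minus strand, with the motif from base 26 after the start, on the opposite strand.
Tff3: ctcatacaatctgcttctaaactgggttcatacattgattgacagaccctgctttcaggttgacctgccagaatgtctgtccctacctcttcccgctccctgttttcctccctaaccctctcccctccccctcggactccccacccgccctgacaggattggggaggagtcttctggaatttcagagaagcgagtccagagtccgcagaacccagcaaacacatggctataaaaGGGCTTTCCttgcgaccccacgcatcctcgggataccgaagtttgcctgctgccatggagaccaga
Cd83: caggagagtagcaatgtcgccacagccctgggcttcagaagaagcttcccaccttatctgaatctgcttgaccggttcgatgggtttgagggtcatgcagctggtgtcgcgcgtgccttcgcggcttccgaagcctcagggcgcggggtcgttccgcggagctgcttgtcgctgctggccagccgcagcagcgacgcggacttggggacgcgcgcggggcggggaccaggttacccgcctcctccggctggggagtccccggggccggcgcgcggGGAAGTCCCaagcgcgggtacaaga

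The E-box CACGTG, which reads the same on both strands and is known as a binding motif of the growth regulator Myc among other factors, was in 8 of 52 promoters (15.4%), against 7.81% of promoters of genes on the array. By role it was in 3 of 10 matched promoters of ribosome and translation genes and 2 of 4 of nuclear and other genes. Receptors and signalling held it in 2 of 7 (Lpar3 and Igf1r), and membrane, transport and cytoskeleton in 1 of 9 (Naglt1). The nuclear carriers were Kat5 and Taf6l, and the remaining role groups had none. It was thus not particular to the ribosome group, whose 3 carriers are shown with the motif in capitals. All 60 genes were chosen for the same pattern, and whether Myc, itself 1 of the 60, acts on these promoters was not tested. Mybbp1a, a nucleolar protein that binds Myb, lies at chr10:57555208-57555507, plus strand, and holds the motif at 156 bases and again at 1 base before the start. Pabpc4, a cytoplasmic poly(A)-binding protein, lies at chr5:140848542-140848841, plus strand, with the motif 113 bases before the start. Tma16, a factor associated with ribosomes, lies at chr16:28003155-28003454, plus strand, with the motif 57 bases before it.
Mybbp1a: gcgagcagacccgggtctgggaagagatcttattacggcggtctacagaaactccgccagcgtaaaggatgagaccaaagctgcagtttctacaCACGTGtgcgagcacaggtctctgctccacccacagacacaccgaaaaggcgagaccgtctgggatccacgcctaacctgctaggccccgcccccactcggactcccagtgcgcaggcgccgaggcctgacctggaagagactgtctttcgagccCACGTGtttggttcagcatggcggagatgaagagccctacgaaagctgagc
Pabpc4: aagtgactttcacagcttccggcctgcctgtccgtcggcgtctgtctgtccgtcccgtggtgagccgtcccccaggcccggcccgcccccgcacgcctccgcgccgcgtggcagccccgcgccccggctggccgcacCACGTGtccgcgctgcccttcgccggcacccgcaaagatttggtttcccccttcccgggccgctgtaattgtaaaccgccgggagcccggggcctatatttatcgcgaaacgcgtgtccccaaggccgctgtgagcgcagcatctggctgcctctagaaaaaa
Tma16: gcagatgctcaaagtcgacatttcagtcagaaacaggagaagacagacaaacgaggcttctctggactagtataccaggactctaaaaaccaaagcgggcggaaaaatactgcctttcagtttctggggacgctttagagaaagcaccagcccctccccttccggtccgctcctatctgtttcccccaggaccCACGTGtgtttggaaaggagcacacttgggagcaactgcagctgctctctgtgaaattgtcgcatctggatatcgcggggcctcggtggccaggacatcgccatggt

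Of the other motifs searched, the GC box GGGCGG was in 48.1% of the 52 promoters against 49.8% of those of genes on the array, CCAAT in 38.5% against 37.7%, and TATAAA in 9.6% against 12.1%. The glucocorticoid receptor half-site AGAACA was in 13.5% against 15.5%, the nuclear receptor half-site AGGTCA in 19.2% against 13.2%, the AP-1 motif TGANTCA in 7.7% against 6.43%, the D-box TTANGTAA in 3.8% against 1.77% and the STAT motif TTCNNGAA in 3.8% against 7.61%. The cAMP response element TGACGTCA was in 0 of 52, against 2.54%. A match says only that the letters are present in this window.

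The 28 PDTC rats took no part in the selection and were used to test the pattern. Values below are background-corrected, quantile-normalized log2 intensities, on which 1 unit is a doubling. All 60 genes were measured well enough to be tested, that is, above background on at least 4 of the 28 arrays. A trough was called where a gene was lower at 2 weeks than at 2 days and higher in adults than at 2 weeks, each at an adjusted p under 0.05 (limma, Benjamini-Hochberg over all probes). Where a gene has a pair of differences, the first is 2 weeks minus 2 days and the other adult minus 2 weeks, on the log2 scale with the SE after ±. Of 12 markers of kidney epithelium 11 were above background on most arrays at every age. Their summed level in PDTC rats was 14.59 to 15.12 at 2 days, 15.72 to 16.08 at 2 weeks and 15.93 to 16.33 in adults, and of the 11 tested 9 were higher and 0 lower at 2 weeks than at 2 days. That of 12 nephron progenitor markers was 11.48 to 11.76 at 2 days, 10.46 to 10.66 at 2 weeks and 9.22 to 10.98 in adults. Of the 8 tested 7 were lower at 2 weeks than at 2 days, with a median of -1.12, and 4 were lower in adults than at 2 weeks. Their part in the falls below was not tested.

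In PDTC rats 52 of the 60 genes were called as troughs, against 304 of all 13813 probes tested (2.2%). The fall to 2 weeks was called for 52 genes, where 14.4% of probes were lower and 11.7% higher, and the rise to adulthood for 59 genes, where 33.2% of probes were higher and 35.3% lower. The median difference of the 60 genes was -0.61 at 2 weeks against 2 days and 0.94 in adults against 2 weeks, with medians of all probes of -0.001 and -0.005. No gene of the 60 went the other way in either step: the differences ran between -2.37 and -0.09 for the fall, and between 0.07 and 5.78 for the rise, the last a fitted value of Cyp4a8, which was above background on no 2-week PDTC array. The rats of the 3 ages were fully separate for some: all 2-week PDTC rats lay below all 2-day PDTC rats for 32 genes (6.42% of probes), below all adults for 35 (10.8%) and below both for 22 (0.29%). The 22 include Dmrtc1c1, Cyp1a1 and Cyp4a8, and the 32 also Mcpt1, all above background on no 2-week PDTC array. These genes passed the filter through the other ages alone, so their separation and calls rest partly on values at background.

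PDTC adults lay on other slides than PDTC pups, so slide and age cannot be told apart there, and scaling arrays to 1 median in place of quantile normalization moved the median of all probes in adults against 2 weeks to -0.61. With that scaling the median of the 60 genes was 0.15, which is 0.76 above that of all probes; 29 genes had a negative difference, among them all 12 ribosome and translation genes, Nqo1, Coq3, Tm7sf2, Tas1r1, Kat5, Pacsin2 and Tomm22, though 25 of the 29 lay above the median of all probes, and the trough was called for 17 genes. The fall did not share these limits. All 60 genes stayed lower at 2 weeks than at 2 days with that scaling, and on the 5 slides that held both ages the 2-week rats were lower for 60, 58, 58, 54 and 60 of the genes, while 49.5% to 51.8% of all probes were lower. On every such slide 51 genes were lower. In bulk kidney, fewer cells of a type and less RNA per cell cannot be told apart.

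**Figure D1:**
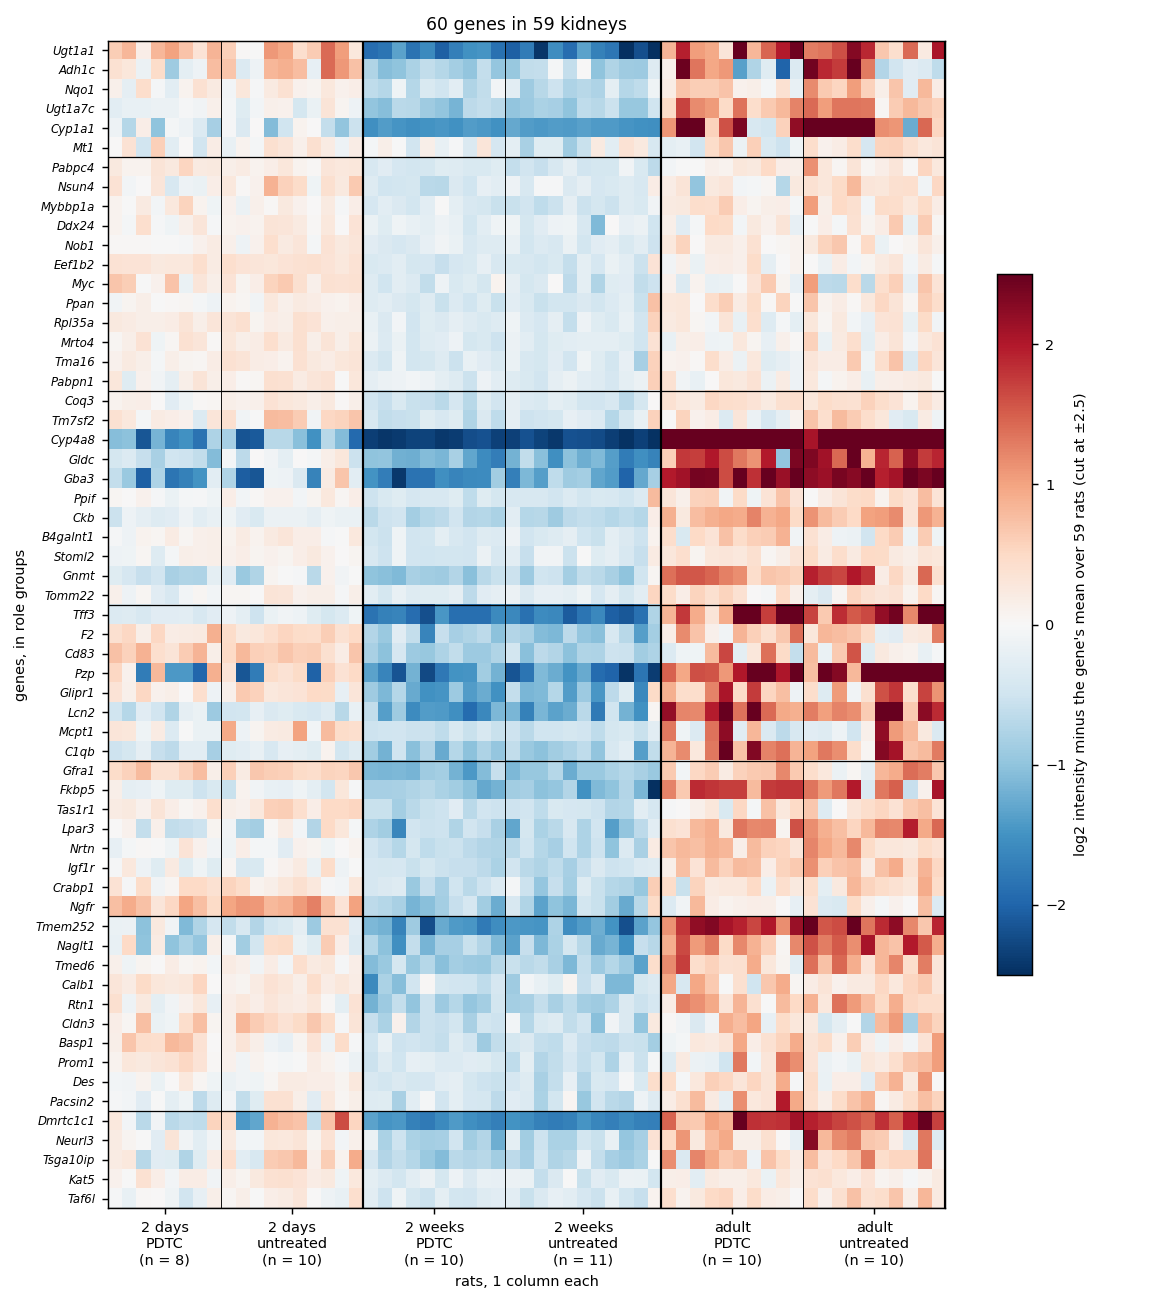
Log2 intensity of each of the 60 genes minus its mean over 59 rats, with 1 column per rat, genes in role groups down the page and rats by age, PDTC left of untreated and females before males. The 2-week columns are blue through nearly every row, and the adult columns are red above all in Cyp4a8, Gba3, Tff3 and Pzp. The last untreated 2-week male stands above its group in most ribosome rows, with a mean of 0.09 over them.

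The detoxification genes showed both the deepest trough and the weakest. Ugt1a1, the enzyme that conjugates bilirubin, ran from 8.19 to 9.03 (median 8.80) in PDTC rats at 2 days, from 5.99 to 6.70 (median 6.27) at 2 weeks and from 8.33 to 10.67 (median 9.28) as adults. No 2-week rat reached either other age. It fell by 2.37 ± 0.20 (SE) at 2 weeks against 2 days (adjusted p = 9.71e-10) and was 3.14 ± 0.19 higher in adults than at 2 weeks (adjusted p = 1.16e-13), a difference of 8.83-fold. Ugt1a7c, a relative that shares the terminal exons of the same gene locus, moved by -0.71 and 1.76. Because UGT1A transcripts share those exons, a probe there reads several of them, and which transcript changed was not tested.

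Adh1c, a class I alcohol dehydrogenase that also oxidizes retinol, was called with differences of -0.89 ± 0.25 and 0.96 ± 0.23 (adjusted p = 0.00734 and 7.55e-04). Its PDTC adults spread from 9.32 to 13.76 and enclosed the 2-week range of 10.25 to 10.73. With males alone its trough was lost and the sign of its score turned, to -0.10. Nqo1, a quinone reductase, moved by -0.56 and 0.79. Cyp1a1, a dioxin-inducible oxidase, was above background on 6 of 8 PDTC rats at 2 days, on 0 of 10 at 2 weeks and on 8 of 10 adults. At 2 days it was thus at least 1.34-fold and in adults at least 4.85-fold above the 2-week level, measured against the lowest signal above background. The limma adjusted p of 0.0449 and 1.38e-07 belong to the fitted differences, which rest on 2-week values at background, and not to these bounds. The call of Cyp1a1 was lost in 16 of 28 fits with 1 array left out. Mt1, a metal-binding metallothionein, was not called, with -0.09 ± 0.18 and 0.07 ± 0.17.

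**Figure D2:**
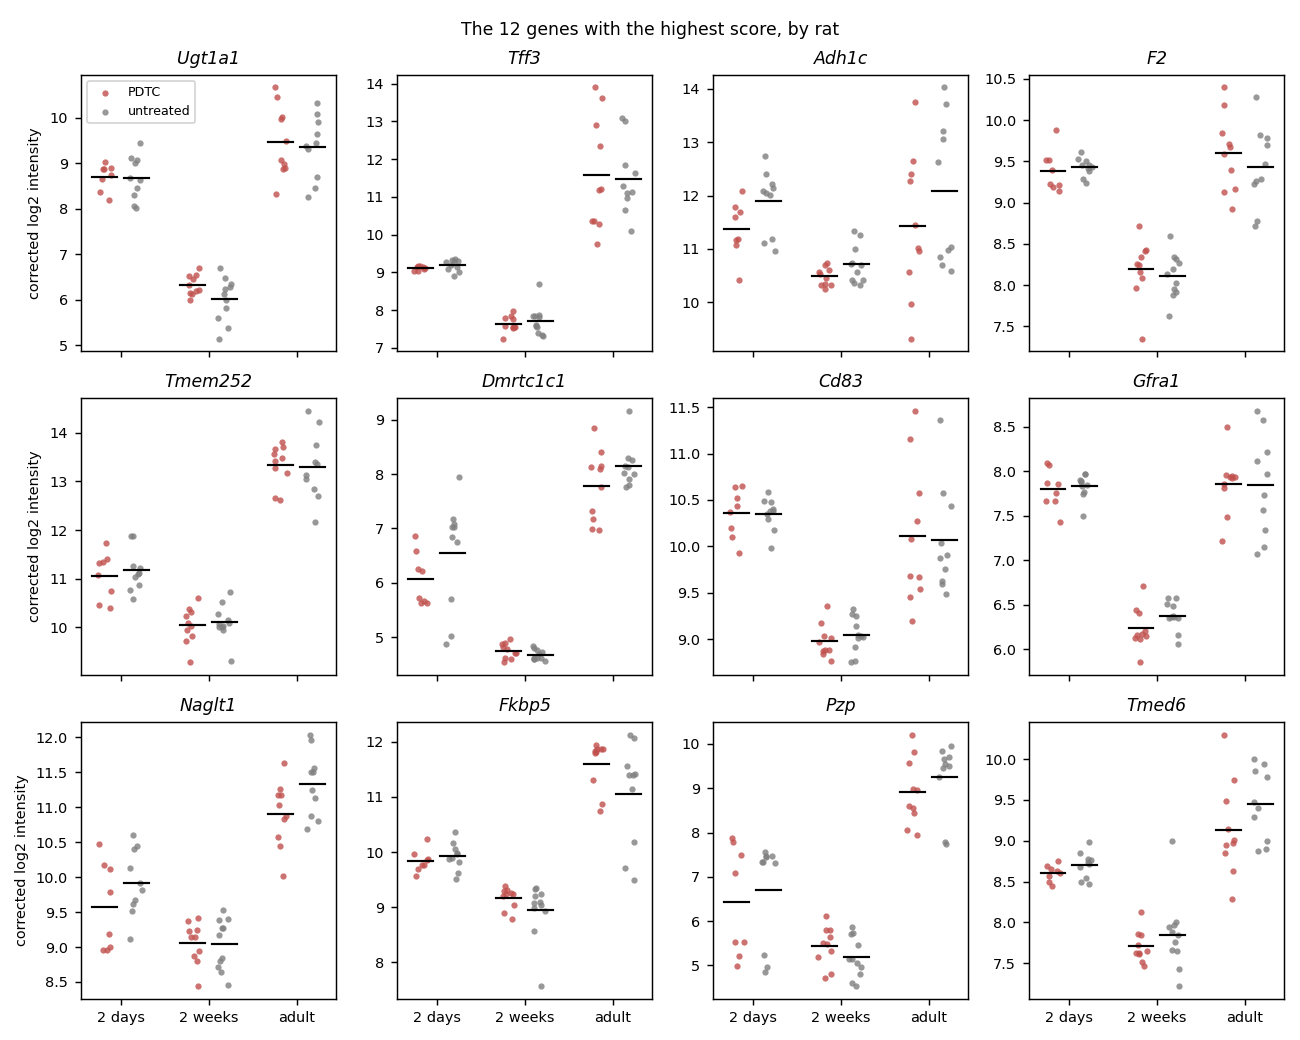
Corrected log2 intensity of the 12 genes with the highest score in every rat, by age on the horizontal axis, with PDTC rats left of untreated rats and a line at each mean. Ugt1a1 at 2 weeks lies between 5.15 and 6.70 over both treatments, below every 2-day and adult rat, while adult Adh1c and Tff3 spread most.

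Secreted proteins and immune cell markers had the largest median changes of the role groups, -1.07 and 2.11, and 6 of 8 were called. Tff3 was at 9.03 to 9.17 in PDTC rats at 2 days (median 9.13), at 7.24 to 7.98 at 2 weeks (median 7.56) and at 9.76 to 13.91 as adults (median 11.19). The 3 ages did not overlap. It fell by 1.48 ± 0.24 at 2 weeks against 2 days (adjusted p = 2.75e-05) and was 3.96 ± 0.23 higher in adults than at 2 weeks (adjusted p = 2.60e-14). F2, which encodes prothrombin, moved by -1.19 ± 0.18 and 1.41 ± 0.17, and its 2-week range of 7.35 to 8.71 lay below the 2-day range of 9.13 to 9.88 and the adult range of 8.93 to 10.40.

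Cd83 was at 8.76 to 9.36 at 2 weeks, with 9.93 to 10.64 at 2 days and 9.20 to 11.46 in adults, so that 2-week rats and adults overlapped. It moved by -1.37 ± 0.23 and 1.13 ± 0.22 (adjusted p = 4.46e-05 and 5.44e-05). Pzp, a protease inhibitor of the alpha-macroglobulin family, moved by -0.95 ± 0.32 and 3.43 ± 0.30, and was above background on 7 of 8 rats at 2 days and 7 of 10 at 2 weeks. Its call was lost in 6 of 28 fits with 1 array left out. At 2 days it was uneven, with PDTC rats between 4.99 and 7.88. Lcn2, which binds iron-carrying siderophores and rises in injured tubules, moved by -0.87 and 3.12.

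C1qb, a complement subunit of macrophages, and Mcpt1, a mast cell protease, were not called: C1qb differed by -0.43 (adjusted p = 0.177) and 2.17. Mcpt1 was above background on 0 of 10 rats at 2 weeks and on 4 rats at each other age, so that no fold is given. The fitted values gave a limma adjusted p of 0.132 for 2 days against 2 weeks and 0.00153 for adults against 2 weeks. The adult median of 4.96 lay below the lowest signal above background at 2 weeks, 5.20, so the adult difference rests on few rats. Markers of other cell types moved with age as well. The summed level of 17 granulocyte markers was 10.21 to 10.60 at 2 days, 9.40 to 9.84 at 2 weeks and 10.66 to 13.27 in PDTC adults, and 10 of them were above background on no 2-week PDTC array and 12 on no adult PDTC array. Of the 10 tested 7 were lower at 2 weeks than at 2 days, and 3 were higher and 1 lower in adults than at 2 weeks, with a median of -0.06. That of 18 macrophage and lymphocyte markers was 11.42 to 11.65, 11.28 to 11.61 and 12.77 to 14.60 log2 units at those ages. Lcn2, itself 1 of the 17 granulocyte markers, was at 9.96 to 12.69 in PDTC adults, and C1qb is 1 of the 18 others. These sums are thus not separate from those 2 genes. The part of such cells in the changes of Cd83, Lcn2 and C1qb was not tested.

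All 12 genes grouped under ribosome assembly and translation were called, with small changes of like size. Their medians were -0.47 (-0.69 to -0.28) at 2 weeks and 0.37 (0.33 to 0.69) in adults. No adult rise held with scaling to 1 median, where all 12 differences from 2 weeks were negative. With arrays scaled to the median of the probes above background on all arrays, 10 of the 12 were called. Eef1b2, a nucleotide exchange subunit of elongation factor 1, was at 12.78 to 12.98 in PDTC rats at 2 days (median 12.87), 11.98 to 12.35 at 2 weeks (median 12.17) and 12.33 to 13.02 as adults (median 12.66). Its 2-week rats lay below all 2-day rats and met the adults only at the edge. It fell by 0.69 ± 0.08 (adjusted p = 2.36e-07) and was 0.44 ± 0.08 higher in adults (adjusted p = 1.13e-05).

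Pabpc4 moved by -0.62 ± 0.07 and 0.52 ± 0.06, Mybbp1a by -0.48 ± 0.09 and 0.60 ± 0.08, and Tma16 by -0.46 ± 0.08 and 0.38 ± 0.08, the 3 genes whose E-box promoters are printed above. Nsun4, which methylates mitochondrial ribosomal RNA, had -0.43 ± 0.15 and 0.37 ± 0.14 and lost its call in 6 of the 28 fits with 1 array left out. Myc ran from 8.75 to 9.63 at 2 days, from 8.29 to 8.99 at 2 weeks and from 8.57 to 9.56 in adults. All 3 ages overlapped, and it had -0.62 ± 0.13 and 0.35 ± 0.12 (adjusted p = 7.30e-04 and 0.0152). The median adult difference from 2 days of these 12 genes was -0.07, where 1 was higher and 1 lower. With scaling to 1 median it was -0.86, beside -0.56 over all probes.

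A wider list of 57 ribosome biogenesis genes, drawn up with the 60 genes in view, held 13 troughs, 6 of them among the 60, against 1.97% of the 9507 named genes tested. At 2 weeks 31 of the 57 were lower than at 2 days and 0 were higher, where 14.4% of probes were lower. In adults 25 were lower than at 2 weeks and 16 higher, where 35.3% of probes were lower and 33.2% higher. Its 4 genes with the smallest p were Tma16, Mybbp1a and Mrto4, already among the 60, and Nolc1, a nucleolar chaperone outside them, which moved by -0.36 ± 0.08 and 0.52 ± 0.07. Of 60 cytosolic ribosomal proteins tested, 45 were lower at 2 weeks than at 2 days. In adults 35 of the 60 were lower and 6 higher than at 2 weeks, and 3 were troughs. Rpl35a was the member among them, with -0.52 and 0.35.

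**Figure D3:**
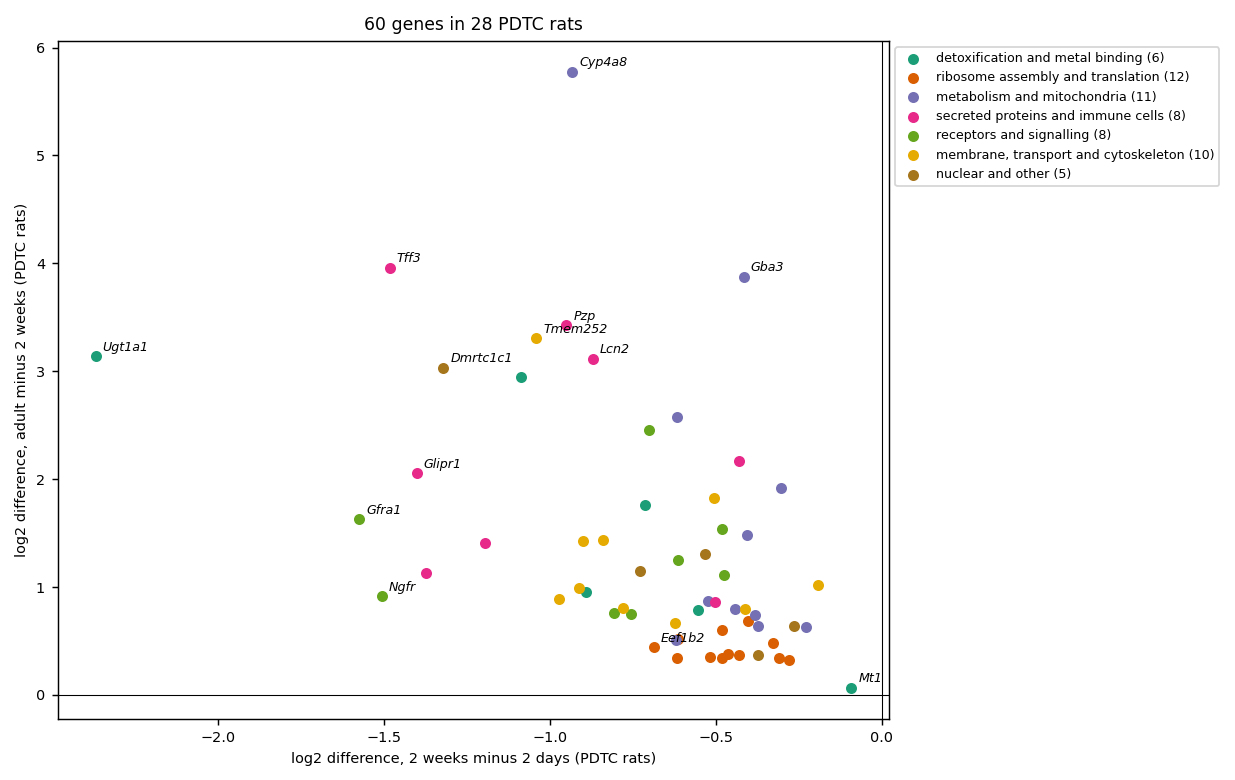
Log2 difference at 2 weeks against 2 days (horizontal) and in adults against 2 weeks (vertical) for the 60 genes in PDTC rats, coloured by role group. The ribosome and translation genes cluster at rises of 0.33 to 0.69, Ugt1a1 has the deepest fall at -2.37, and Cyp4a8 the highest fitted rise at 5.78, from a 2-week level below background that bounds it only as at least 38.12-fold.

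Of the metabolic and mitochondrial genes 8 of 11 were called as troughs, with median changes of -0.42 and 0.87. In adults 10 of 11 were higher than at 2 days, as were 35.0% of probes. With scaling to 1 median 2 of 11 were called and 6 of the 11 differences of adults from 2 weeks were negative. Under it 5 of 11 differences of adults from 2 days were positive, with a median of -0.36, beside -0.56 over all probes. Cyp4a8, of a family of fatty acid hydroxylases, was above background on 6 of 8 PDTC rats at 2 days, 0 of 10 at 2 weeks and 10 of 10 adults. It was at least 1.33-fold higher at 2 days and at least 38.12-fold higher in adults than at 2 weeks. The limma adjusted p of 5.82e-05 and 1.21e-21 belong to the fitted differences, which rest on 2-week values at background, and not to these bounds. Coq3, an enzyme of ubiquinone synthesis, moved by -0.52 ± 0.07 and 0.87 ± 0.07. Tm7sf2, a sterol reductase, moved by -0.62 and 0.51, but its second probe was not called, with -0.65 and 0.12.

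Gldc, the glycine decarboxylase of mitochondria, and Gba3, a cytosolic beta-glucosidase, were not called because the fall missed the threshold. Gldc differed by -0.62 ± 0.28 (adjusted p = 0.113) and 2.58 ± 0.27, and Gba3 by -0.42 ± 0.21 (adjusted p = 0.167) and 3.88 ± 0.20. Tomm22, a receptor of the mitochondrial import pore, differed by -0.23 (adjusted p = 0.0733) and 0.63. With scaling to 1 median the difference of Tomm22 in adults was -0.19.

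All 8 receptors and signalling proteins were called. Gfra1, the co-receptor that binds the kidney growth factor GDNF, was at 7.42 to 8.09 in PDTC rats at 2 days (median 7.81), 5.84 to 6.71 at 2 weeks (median 6.16) and 7.22 to 8.50 as adults (median 7.93). The 2-week rats were separate from both other ages, which overlapped each other. It fell by 1.57 ± 0.12 (adjusted p = 1.64e-10) and was 1.63 ± 0.12 higher in adults (adjusted p = 2.88e-12). Nrtn, which encodes the related ligand neurturin, moved by -0.61 ± 0.08 and 1.25 ± 0.08.

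Ngfr, the low-affinity neurotrophin receptor, fell by 1.51 ± 0.13 and was 0.92 ± 0.13 higher in adults, which stayed 0.59 ± 0.13 below the 2-day level (adjusted p = 2.95e-04). Fkbp5, a co-chaperone that restrains the glucocorticoid receptor and is induced by it, was at 8.79 to 9.38 at 2 weeks, with 9.56 to 10.23 at 2 days and 10.74 to 11.94 in adults, without overlap. It moved by -0.70 ± 0.14 and 2.45 ± 0.13. Tas1r1, a subunit of the umami taste receptor, moved by -0.75 and 0.75, and Lpar3, a receptor of lysophosphatidic acid, by -0.48 (adjusted p = 0.0496) and 1.54; the call of Lpar3 was lost in 18 of 28 fits with 1 array left out. Of 17 glucocorticoid-responsive genes tested 2 were troughs, Fkbp5 and Lcn2, against 1.97% of the named genes tested. Both belong to the genes selected for this pattern. Of the 17, 2 were lower and 7 higher at 2 weeks than at 2 days, and 11 were higher and 3 lower in adults than at 2 weeks.

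Of the 10 membrane, transport and cytoskeletal genes 8 were called. Tmem252, a transmembrane protein, was at 10.40 to 11.74 in PDTC rats at 2 days (median 11.21), 9.28 to 10.61 at 2 weeks (median 10.06) and 12.62 to 13.80 as adults (median 13.45). Adults stood apart from both younger ages, which met between 10.40 and 10.61. It moved by -1.04 ± 0.20 and 3.31 ± 0.19 (adjusted p = 2.00e-04 and 1.83e-14). Tmed6, of a family that sorts cargo between endoplasmic reticulum and Golgi, was at 7.47 to 8.12 at 2 weeks, below all 2-day rats (8.45 to 8.75) and all adults (8.29 to 10.30), and moved by -0.90 ± 0.16 and 1.43 ± 0.15.

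Calb1, the calcium buffer of the distal tubule, moved by -0.91 ± 0.20 and 0.99 ± 0.19 and returned to its newborn level within 0.08. Within 12 genes of vitamin D and calcium handling it was 1 of 3 troughs, against 1.97% of the named genes tested. Another was Cyp24a1, the vitamin D-degrading enzyme that the selection set aside, with -4.89 ± 0.52 and 4.46 ± 0.49. The third was Trpv5, the apical calcium channel, with -0.97 ± 0.24 and 0.60 ± 0.22, which the selection neither chose nor set aside. At 2 weeks 3 of the 12 were lower and 3 higher than at 2 days, with a median of -0.01. Casr, the calcium-sensing receptor and next by p in that list, was higher by 0.63 at 2 weeks and by a further 0.46 in adults. Naglt1, a sodium-dependent glucose transporter, and Pacsin2, which shapes membranes in endocytosis, were not called: the fall was -0.50 ± 0.21 (adjusted p = 0.0733) for Naglt1 and -0.19 ± 0.17 (adjusted p = 0.493) for Pacsin2.

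All 5 nuclear and other genes were called. Dmrtc1c1 was above background on 8 of 8 PDTC rats at 2 days, 0 of 10 at 2 weeks and 10 of 10 adults, with values of 5.64 to 6.87, 4.54 to 4.97 and 6.97 to 8.85. It was at least 1.83-fold higher at 2 days and at least 6.01-fold higher in adults than at 2 weeks. The limma adjusted p of 3.05e-07 and 8.68e-16 belong to the fitted differences, which rest on 2-week values at background, and not to these bounds. Neurl3, an E3 ubiquitin ligase, moved by -0.73 and 1.15, and the histone acetyltransferase Kat5 by -0.37 and 0.37. Tsga10ip moved by -0.53 and 1.30, and its second probe was not called, with -0.34 and 0.06.

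Adult and newborn levels divided the genes. In PDTC rats 33 of 60 were higher in adults than at 2 days (35.0% of probes) and 2 were lower (36.7%), and with scaling to 1 median these counts were 13 (17.1% of probes) and 36 (58.1%). The median of the 60 genes was then -0.54 and that of all probes -0.56. The largest were Cyp4a8 at 4.85, Gba3 at 3.46, Pzp at 2.48, Tff3 at 2.48 and Tmem252 at 2.27. The lower ones were Ngfr at -0.59 and Eef1b2 at -0.25 (adjusted p = 0.00719).

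With all arrays weighted equally, PDTC rats differed from untreated rats in none of these genes past the threshold. At each of the 3 ages 0 of the genes tested differed between PDTC and untreated rats, in either direction, as did 0.0% of all probes (limma). At 2 days 13 of 60 had an unadjusted p under 0.05, 2 higher and 11 lower, against 15.8% of probes; at 2 weeks 3 of 56 (5.22%) and in adults 4 of 60 (5.71%), all lower. The medians of the genes were -0.11, -0.06 and -0.07 at the 3 ages, and with arrays scaled to 1 median 0.07, 0.13 and 0.04, where those of all probes were 0.12, 0.13 and 0.05. The untreated rats also chose the genes, which bears on each of these differences. The 4 genes above background on too few 2-week arrays to be tested were Dmrtc1c1, Cyp1a1, Cyp4a8 and Mcpt1.

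The smallest p at 2 days belonged to Gldc, at 6.01 ± 0.24 (SD) in 8 PDTC rats and 6.51 ± 0.29 in 10 untreated rats, a difference of -0.49 ± 0.12 (SE; limma adjusted p = 0.125, or 0.0390 with array weights), followed among the lower genes by Tsga10ip at -0.57 and Tomm22 at -0.22. Prom1, which encodes the stem cell and tubule marker prominin, averaged 10.49 ± 0.15 (SD) in PDTC rats and 10.23 ± 0.10 in untreated rats (limma adjusted p = 0.128, or 0.0477 without PDTC male 4 and 0.0380 with array weights), and Basp1, a membrane-bound signalling protein, differed by 0.35 (adjusted p = 0.177). At 2 weeks the lowest p values were those of Gba3 at -0.40, Nsun4 at -0.19 and Gnmt at -0.22, and on the higher side Ugt1a1 at 0.32, Pzp at 0.28 and Prom1 at 0.13, each with an adjusted p of 0.825 by limma. In adults they were those of Nsun4 at -0.43, Adh1c at -0.64 and Dmrtc1c1 at -0.36, and on the higher side Fkbp5 at 0.54 and B4galnt1 at 0.27 (limma adjusted p = 0.799 for each) and Tomm22 at 0.14 (adjusted p = 0.845).

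**Figure D4:**
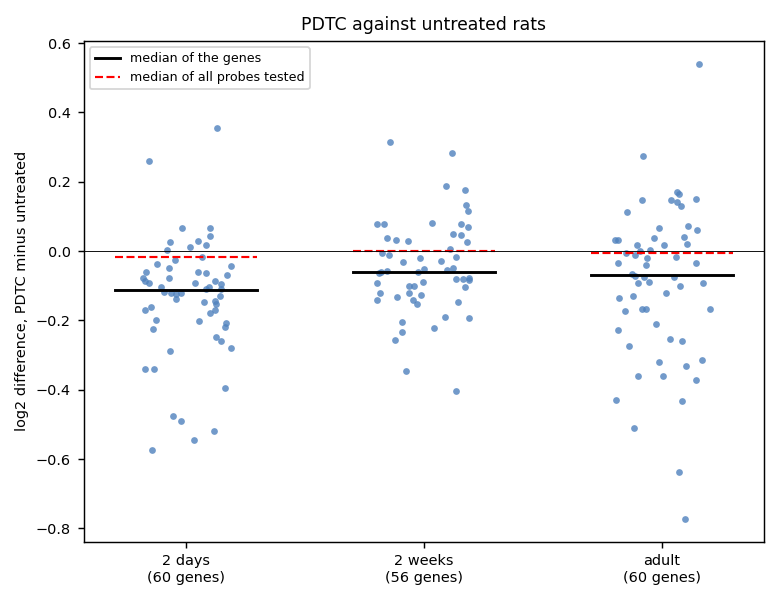
Log2 difference of PDTC minus untreated rats for each gene at the 3 ages, with the median of the genes (black) and of all probes tested (red, dashed). The medians of the genes are -0.11, -0.06 and -0.07, and no single gene passed the threshold.

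The untreated 2-week male left out of the selection, which lay on slide 8 among adult arrays, stood apart from its group. For 34 of the 60 genes it was above all other untreated 2-week rats, for 20 within their range and for 6 below it. Against untreated adults it was below all for 35 genes, within their range for 19 and above all for 6. Tff3 was at 8.68 in this rat against 7.31 to 7.86 in the rest of its group. Ppan, a ribosome assembly factor, was at 9.66 against 8.37 to 8.68, and at 8.97 to 9.63 in untreated adults. The mean over the ribosome and translation genes, each taken against its mean over all rats, was 0.09 in this rat. It was -0.46 to -0.25 in the rest of its group and -0.02 to 0.50 in untreated adults. The part of slide in this was not tested. Without it the median difference of PDTC from untreated rats at 2 weeks was 0.01 in place of -0.06, and still 0 genes were called.

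Between the sexes 10 of the genes were called, all in adults; whether these differences varied with age was tested in PDTC rats alone. At 2 days and at 2 weeks 0 genes were called between females and males in either direction (0.0% of probes; limma), with 1 of 60 and 2 of 56 at an unadjusted p under 0.05. The smallest p belonged to Des, the muscle filament desmin, at -0.15 at 2 days, and at 2 weeks to Gldc at 0.30 and Fkbp5 at 0.37 (limma adjusted p = 0.999985 for Des and 0.9998 for both others). In adults 4 genes were higher in females (1.45% of probes) and 6 lower (1.24%).

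Adh1c averaged 12.51 ± 0.83 in PDTC females and 10.37 ± 0.72 in PDTC males, and 13.33 ± 0.56 in untreated females and 10.83 ± 0.19 in untreated males (SD, 5 rats each). No adult male reached any adult female. The difference was 2.32 ± 0.26 (SE; limma adjusted p = 9.67e-06). Gnmt, which methylates glycine and so consumes S-adenosylmethionine, was 1.01 ± 0.14 higher in females (limma adjusted p = 1.76e-04), Cyp1a1 was 2.28 ± 0.49 higher and Nrtn 0.47 ± 0.11 higher.

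Tff3 was lower in females, at 10.39 ± 0.52 in PDTC females and 12.79 ± 1.09 in PDTC males, and 10.91 ± 0.47 in untreated females and 12.04 ± 1.02 in untreated males (SD, 5 rats each). The difference was -1.76 ± 0.34 (SE; limma adjusted p = 0.00431), and the sexes overlapped between 10.63 and 11.28. Gfra1 was lower by -0.65 ± 0.14, Prom1 by -0.79 ± 0.18, Pzp by -1.05 ± 0.24, Cyp4a8 by -1.14 ± 0.26 and Dmrtc1c1 by -0.67 ± 0.16.

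**Figure D5:**
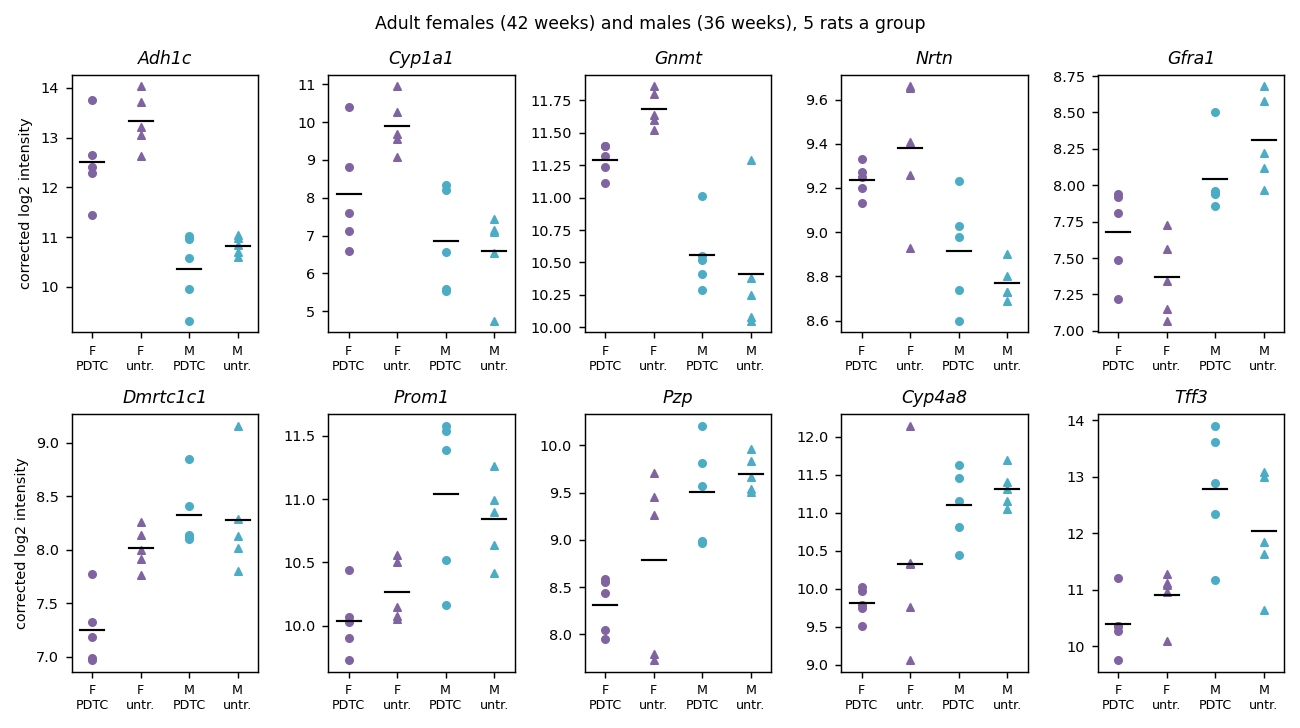
Corrected log2 intensity in adult females (F, left) and males (M, right) for the 10 genes called between the sexes, with PDTC rats as circles, untreated rats as triangles and a line at each mean of 5 rats. Adh1c shows no overlap of the sexes, at 11.45 to 14.04 in females and 9.32 to 11.04 in males.

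The change from 2 weeks to adulthood in PDTC rats differed by sex for 4 genes, when tested as an interaction. It was larger in females for Adh1c by 2.12 ± 0.47 (limma adjusted p = 0.0170) and Gnmt by 0.94 ± 0.18 (adjusted p = 0.00586), where 0.601% of probes were called, and smaller for Tff3 by -2.42 ± 0.45 (adjusted p = 0.00383) and Cyp4a8 by -1.20 ± 0.30 (adjusted p = 0.0401), where 0.912% were. The call of Cyp4a8 was lost in 15 of 28 fits with 1 array left out and its 2-week level was below background, and the other 3 were called in all 28. The fall from 2 days to 2 weeks differed by sex for 0 genes (0.0% of probes in either direction; 2 of 60 at an unadjusted p under 0.05). The trough itself was called for 24 of 59 genes in PDTC males alone (0.451% of probes) and 39 of 60 in PDTC females alone (1.24%), with median scores of 0.50 and 0.59, and the difference between these counts was not tested.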

How the data were processed

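The deposited intensity table, not normalized per its file name, holds 1 signal per probe and array for 22523 probes, and per the file headers a detection p-value beside it. The value table of the authors holds log2 values; their normalization is not stated in the labels or headers, and they differed by at most 0.161 from quantile-normalized log2 signals. Per the labels' protocols, RNA was extracted with TRIzol, purified, amplified and labelled by Illumina TotalPrep, and run on arrays by an outside company. Deposited log2 values chose the 60 genes and were otherwise an alternative.

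The deposited p-value was small below as well as above background, so background was set per array at the median over the 50 probes of highest p-value, with its SD from lower signals mirrored. Signals were corrected by normexp (limma 3.58.1, R 4.3.3), 16 was added, 59 arrays were quantile-normalized and log2 was taken. Probes above background (one-sided normal p under 0.05) on at least 4 arrays of a fit were tested with lmFit and eBayes, Benjamini-Hochberg over all probes, threshold 0.05. A first fit held 28 PDTC arrays; 3 fits, 1 per age, compared PDTC with untreated and female with male rats. On simulated data the trough test called 54 of 100 genes changed by 0.5 and 91 of 100 changed by 1, where the other 13613 probes had no age change. Far more probes changed with age in the PDTC rats, which moves the adjusted threshold, so these shares need not hold there. Median signals were 67.8 to 202.7 against background levels of 59.9 to 136.6, which limits dim probes.

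Groups came from the labels, replicates were numbered in accession order, and 13793 probes had 1 gene symbol and 8730 none. The 60 genes, their role groups and the gene lists were chosen with earlier results of these data known. Genes with values in the text were the 12 highest scores, the edge of the selection, up to 4 per role group, genes not called, and those with the smallest p per comparison or list. The alternatives tried are given at the end.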

Additional observations from a re-analysis of the deposited data

Results flagged for a closer look

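Among 216 sets of values, 1 gene or the mean of the 60 genes in 1 group of rats, 15 held a rat whose gap to the next was large for the range of its group; chance flags about 1 in 20 sets. In PDTC rats at 2 days, male 4 was high for F2 (9.88 against 9.19 to 9.23 in the others of its group), Dmrtc1c1 (6.87 against 5.64 to 5.72) and Gnmt (9.61 against 9.05 to 9.10), and female 3 was low for Cyp4a8 (4.86 against 5.84 to 5.98). In untreated rats at 2 days, male 2 was low for Pzp (4.96 against 7.34 to 7.57) and Gnmt (9.18 against 9.76 to 9.96), and female 2 for Gfra1 (7.50 against 7.88 to 7.97).

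At 2 weeks, PDTC male 4 was high for Tff3 (7.85 against 7.54) and untreated female 4 for Tmem252 (10.73 against 9.95 to 10.06). Untreated male 6, the array on slide 8, was high for Tff3 (8.68 against 7.31 to 7.82) and for the mean of the 60 genes, each taken against its mean over all rats (-0.32 against -0.79 to -0.66). In adults, PDTC male 4 was high for Gfra1 (8.50 against 7.86 to 7.96) and PDTC male 2 low for Fkbp5 (10.87 against 11.81 to 11.87), while untreated female 2 was low for Tff3 (10.09 against 10.97 to 11.28) and untreated male 4 high for Gnmt (11.29 against 10.05 to 10.38).

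A test of the difference itself separated the sexes of PDTC rats in the change from 2 weeks to adulthood for Tff3 (-2.42, female minus male), Cyp4a8 (-1.20), Adh1c (2.12) and Gnmt (0.94).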

How the results depend on the processing

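No paired analysis was possible because the labels carry no replicate number shared by groups and the numbers used here follow accession order; slide was used as a block instead. The trough in PDTC rats was called for 48 to 58 of 60 genes without normexp, without the filter, with deposited values, array weights, 1 fit of all 59 arrays, slide as a random block or scaling to the median of 6989 probes above background on all arrays, the last added after the data were seen. It was called for 44 to 53 with 1 array left out, fewest without 2-week PDTC male 2, and 43 of 52 genes kept their call in all 28 such fits. With males only it was called for 24 and the fall for 25. Scaling to 1 median gave 17 troughs, 23 rises and 13 falls from 2 weeks to adulthood, and 13 adult levels above and 36 below 2 days. Under it the trough score of 26 called genes turned negative: B4galnt1 -0.24, Basp1 -0.12, Cldn3 -0.15, Coq3 -0.056, Crabp1 -0.12, Ddx24 -0.52, Des -0.20, Eef1b2 -0.23, Kat5 -0.58, Mrto4 -0.65, Mybbp1a -0.42, Myc -0.69, Nob1 -0.48, Nqo1 -0.23, Nsun4 -0.64, Pabpc4 -0.34, Pabpn1 -0.52, Ppan -0.34, Ppif -0.20, Prom1 -0.24, Rpl35a -0.11, Stoml2 -0.23, Taf6l -0.34, Tas1r1 -0.28, Tm7sf2 -0.53, Tma16 -0.63; the cause was not tested. It was also negative for Mt1 -0.25, Tomm22 -0.19 and Pacsin2 -0.02, which were not called before. With males only that of Adh1c was -0.10. Adult levels below 2 days numbered 1 in males and 4 in females, 2 to 3 with 1 array left out. Of the 60 genes, 38 were also chosen on PDTC arrays, 40 on the corrected scale and 49 to 60 by the other alternatives (56 to 60 without 1 untreated array). The sex difference of the adult rise was larger in females for 1 gene under scaling to 1 median or the 59-array fit, and smaller for 1 gene under either median scaling or no filter and for 4 with array weights or slide as a random block (1 to 4 with 1 array left out, 2 to 3 larger). At 2 days 1 gene was higher and 1 lower in PDTC rats with array weights (Prom1 and Gldc), and 0 to 1 were higher with 1 array left out, Prom1 without PDTC male 4. In adults 9 genes were higher in females with the 59-array fit, and 4 to 6 with 1 array left out. Dim probes limit Cyp1a1, Cyp4a8 and Dmrtc1c1 to bounds and leave Mcpt1 without a fold.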

Other observations

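Outside the 60 genes, 135 named genes also had a trough in PDTC rats. The 4 with the smallest p were Cyp24a1, which the selection set aside, Snrpn, a spliceosomal protein, with -0.45 at 2 weeks against 2 days and 0.39 in adults against 2 weeks, Rpl10, a protein of the large ribosomal subunit, with -0.47 and 0.36, and Gabbr2, a subunit of the GABA-B receptor, with -1.15 and 0.63. When genes were ranked on PDTC arrays by the same score, with the same 3 genes set aside, Ugt1a1 was 1 and Tff3 2, the first 24 ranks were all held by the 60 genes, and the lowest were Pacsin2 at 373 and Mt1 at 938.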
